A study of Mus musculus with 8 samples.

Results

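Kidney messenger RNA of mice heterozygous for Sdhd was compared with a pool of wild-type kidney RNA on 4 of the 8 two-colour arrays of the study, chosen by the +/- genotype in their labels. The +/- mice carried 1 null and 1 floxed Sdhd allele and no Cre recombinase. The +/+ mice of the pool were littermates with 1 floxed and 1 normal allele, also without Cre, so the floxed allele was common to both. The other 4 arrays held SDHD-ESR kidney, with the null and the floxed allele of +/- mice and in addition a Cre fused to a tamoxifen-responsive estrogen receptor, which deletes the floxed allele. Every mouse was a male of the 129/SvJ strain. Tamoxifen at 100 µg/g was injected into all genotypes on 4 consecutive days beginning at 9 weeks of age, and kidneys were taken at 10 weeks, 1 week after the first injection. RNA of 2 mice was put on each array, so the 4 arrays stood for 8 +/- mice, and the reference on every array was 1 pool from 8 +/+ mice.

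Sdhd encodes one of the subunits that anchor succinate dehydrogenase in the inner mitochondrial membrane. This enzyme, complex II of the respiratory chain, oxidizes succinate to fumarate in the Krebs cycle and passes the electrons to ubiquinone. When it fails, succinate can build up and inhibit the prolyl hydroxylases that mark HIF proteins for breakdown, a state called pseudo-hypoxia. In humans, germline loss of 1 SDHD allele predisposes to paraganglioma.

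Each value is the log2 ratio of +/- over pool, averaged over the features of a gene and centred on the median of its array. The sign of all arrays was turned, so the direction opposes that of the deposited values, because Sdhd stood above the pool as deposited on all 8 arrays. The direction is therefore likely rather than settled, and the fall of Sdhd itself is no finding. The study's own tables are mixed on this point, since its hypoxia genes carry the deposited sign and its most changed genes the turned one. If the sign were turned back, every "higher" below would read "lower" and the reverse. Genes are called higher or lower where the adjusted p of a limma fit over all 8 arrays did not exceed 0.05 (Benjamini-Hochberg over 20519 genes). No dyes were swapped, with +/- RNA always in Cy5 and pool RNA always in Cy3, so dye and genotype cannot be told apart, and the spread among wild-type mice does not enter the test. The array medians before centring ran from -0.19 to 0.41 in +/-, r between +/- arrays across genes was 0.391 to 0.450, and the median SD of a gene over the 4 arrays was 0.216. The deposited ratios hold no intensities, so the level of kidney markers within the tissue and the signal over background were not checked.

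Sdhd had log2 ratios of -0.79, -0.40, -0.92 and -0.93 on +/- arrays 1 to 4. All 4 arrays were below the pool, with array 2 the least low. The mean of -0.76 ± 0.26 (SE, n = 4) is 1.70-fold below the pool, with an adjusted p of 0.0835 by limma. In SDHD-ESR, on the same pool, Sdhd was at -4.26, -3.65, -5.04 and -3.25, without overlap with +/-. The difference between the groups had an exact two-sided permutation p of 0.0286, the smallest that 4 against 4 arrays can give, and an adjusted limma p of 0.108.

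Of the 8 complex II genes tested, Sdhd included, 2 were called higher (25%, against 10.6% of all genes) and 0 lower. Both called genes were assembly factors. Sdhaf4, which helps to load the flavoprotein subunit into the complex, was at 0.55, 0.53, 0.58 and 0.51, the most even of these genes over the arrays. Its mean was 0.54 ± 0.05 (limma SE, n = 4, adjusted p = 0.00619), or 1.46-fold the pool. Sdhaf1, which serves the iron-sulfur subunit, was at 0.25, 0.29, 0.46 and 0.29 (mean 0.32 ± 0.06, adjusted p = 0.0189). Both lay above the pool in SDHD-ESR too, with means of 0.37 and 0.27. Sdhaf4 was called in each fit that left out 1 +/- array, and Sdhaf1 was not. Neither Sdhaf2 (-0.03 ± 0.06) nor Sdhaf3 (-0.07 ± 0.09) passed the test. Of the subunit genes, Sdhb was deposited within 0.01 of 0 on all 4 +/- arrays, as saturated spots would be, so its value does not measure a change. Sdha was near 0 on +/- arrays 1 and 2 only, and its mean of 0.07 ± 0.07 was not called (adjusted p = 0.524). Sdhc, with 1 of 2 features near 0 on at least 2 arrays, averaged 0.15 ± 0.10 (adjusted p = 0.302).

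Of the 17 tested neighbours of Sdhd on chromosome 9 in order of position, 3 were called. This share of 17.6% was near the 16.9% of all genes. Tex12, which lies next to Sdhd and encodes a protein of the meiotic synaptonemal complex, was at -0.42, -1.08, -0.41 and -0.69 in +/- and fell to a mean of -0.65 ± 0.14 (adjusted p = 0.0239). Its 10 features did not move together, with means between -1.40 and 0.50. Bco2, a carotenoid-cleaving enzyme of mitochondria, fell to -0.49 ± 0.07 (adjusted p = 0.0120). Dlat, a subunit of the pyruvate dehydrogenase complex, rose to 0.42 ± 0.09 (adjusted p = 0.0275). The immediate neighbour on the other side, Timm8b, was deposited near 0 on all 4 +/- arrays.

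**Figure D1:**
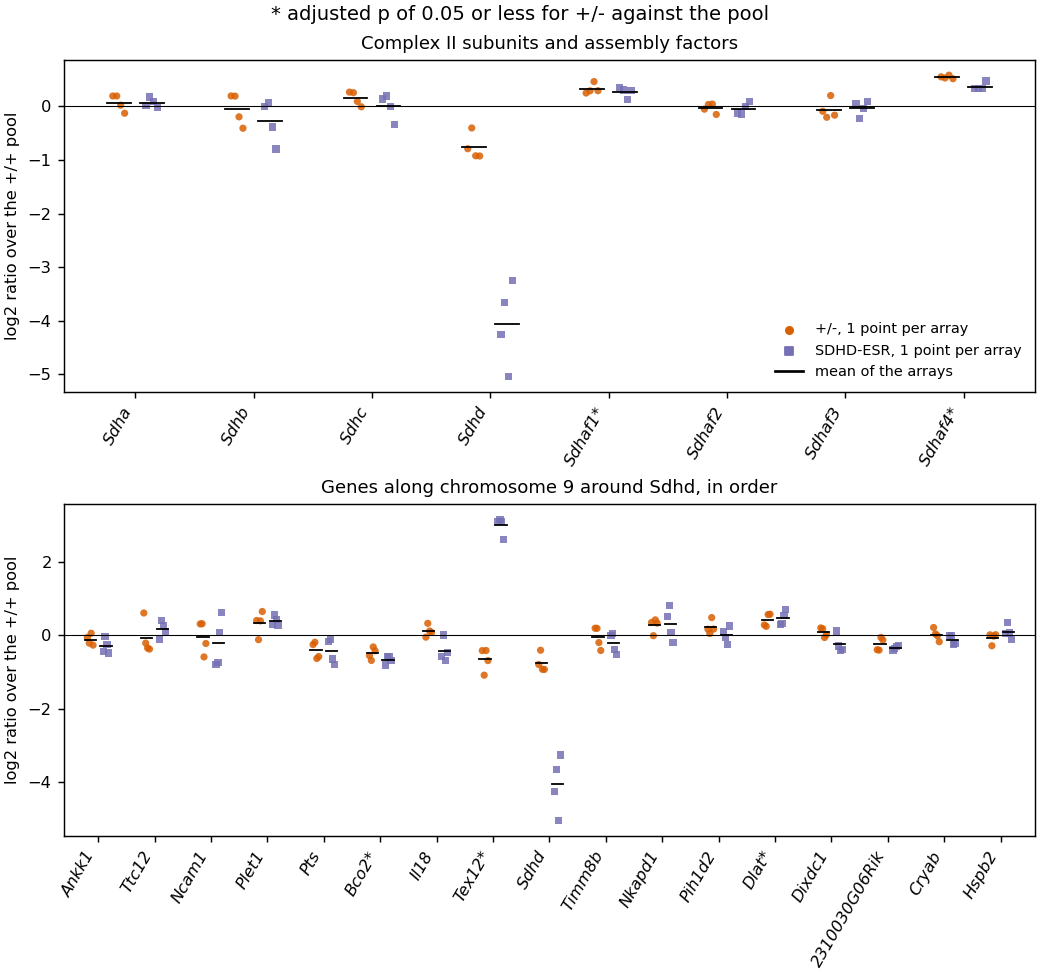
Log2 ratio over the +/+ pool (vertical axis) of complex II genes (top) and of genes around Sdhd on chromosome 9 in their order (bottom), 1 point per array and a bar for the mean, with +/- as circles and SDHD-ESR as squares. Sdhd averaged -0.76 in +/- and -4.05 in SDHD-ESR, and Tex12 stood below the pool in +/- and above it in SDHD-ESR. An asterisk marks genes called in +/-.

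Over all genes, 2177 were called higher in +/- (10.6% of those tested) and 1290 lower (6.29%), 16.9% in either direction. The calls depended on centring and on the number of arrays. Without centring, 0 genes were called higher and 5 lower, and after centring 35.9% of genes had an unadjusted p up to 0.05. With the 4 +/- arrays fitted alone, 4 genes were called higher and 55 lower. Of all calls, 392 (230 higher and 162 lower) held in each of the 4 fits that left out 1 +/- array.

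Falls went farther than rises. The median of the called genes was 0.31 for those higher and -1.04 for those lower, and 4 called genes lay above a log2 ratio of 1 against 679 below -1. The same lopsided shape was seen over all genes, with 16 means above 1 and 1837 below -1. In SDHD-ESR, on the same pool, these counts were 106 and 1613. Means below -1 made up 44.5% of the 1820 genes with a missing value on some array and 5.48% of the 18699 genes with all 8 values. The odorant receptor genes (793 with an Olfr symbol), which are known for their use in the olfactory epithelium, had a median of -0.41 in +/-, against 0.00 over all genes, and 93 of them were called lower (11.7%) and 18 higher (2.27%). The part of dim features in the falls was not tested.

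**Figure D2:**
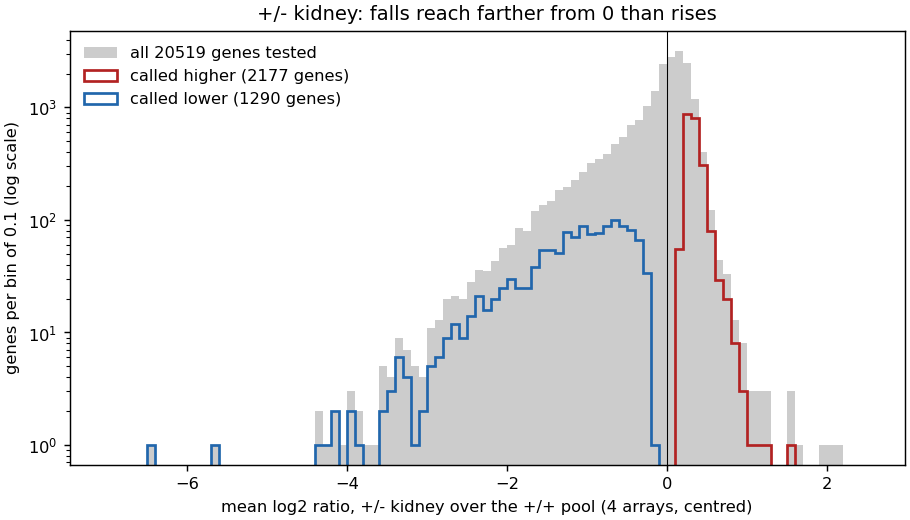
Number of genes (vertical axis, log scale) by mean log2 ratio of +/- kidney over the pool (horizontal axis, bins of 0.1) for all 20519 genes tested in grey, the 2177 called higher in red and the 1290 called lower in blue. The left tail reaches beyond -6, while called rises stay below 2.

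The largest falls and rises are given for called genes measured on all 4 +/- arrays and on the same side of the pool on each. Among the 12 largest falls, Saa2, Fabp1, Ahsg, Mup3, Mup9, Alb and Apof encode secreted or fatty acid-binding proteins typical of hepatocytes, and the others were Smim9, Olfr976, 1700123L14Rik, Gm382 and Ccdc14. Saa2, an acute phase serum amyloid, was at -5.13, -6.59, -4.76 and -6.11, far below the pool on all 4 arrays. Its mean of -5.65 ± 0.36 (limma SE, n = 4, adjusted p = 0.00200) is 50.2-fold below the pool. Saa2 was the 1 among the 24 largest changes that was also called without centring. The lowest called mean of all, -6.48 for Mup5 (adjusted p = 0.0115), came from 3 arrays. Mup genes are near-identical copies, so their features may share signal. The log2 ratios of Mup3, a major urinary protein, were -4.32, -3.83, -3.67 and -1.91 (mean -3.43). The last array was the least low for Mup3.

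The 12 largest rises were smaller and mixed in function. Six6, a homeobox gene of eye and pituitary development, was at 1.83, 1.46, 1.55 and 1.23 (mean 1.52 ± 0.15, adjusted p = 0.00699), 2.86-fold the pool. Slc1a4, a neutral amino acid transporter, was at 1.07, 0.91, 0.89 and 0.86, a tight group with a mean of 0.93 ± 0.06 (adjusted p = 0.00200). Psme3, an activator subunit of the proteasome, was at 0.89, 0.90, 0.92 and 0.97 (mean 0.92 ± 0.07, adjusted p = 0.00357). In SDHD-ESR, Six6 averaged 1.61, Slc1a4 0.98 and Psme3 1.17. The others were the T cell receptor segment Trav3d-2 (1.02), B230209E15Rik (0.97), the lipase-family gene Lipo3 (0.89), the transcription factor Mef2a (0.86), Gm20878 (0.86), the endosomal GTPase Rab5c (0.85), Gm9115 (0.84), Cep170b (0.82) and the exosome subunit Exosc9 (0.82).

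The liver-type list holds transcripts that hepatocytes make in bulk. Of its 19 tested genes, 10 were called lower and 1 higher, against 6.29% and 10.6% of all genes, and the median was -0.74 against 0.00. Fabp1, a fatty acid-binding protein typical of hepatocytes, was at -3.97, -3.75, -4.93 and -2.75, and fell 14.4-fold (mean -3.85 ± 0.50, adjusted p = 0.00956). Alb, serum albumin, was at -3.62, -3.26, -3.79 and -2.53 (mean -3.30 ± 0.56, adjusted p = 0.0148). Ahsg, the glycoprotein fetuin-A, was at -3.69, -3.39, -4.32 and -2.71 (mean -3.53 ± 0.51, adjusted p = 0.0110). For these 3 genes array 4 was the least low, and every +/- array was below the pool.

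Apoa1, the main protein of high-density lipoprotein, was at -2.51, -2.27, -2.42 and -1.79 (mean -2.25 ± 0.24, adjusted p = 0.00657). Vtn, the adhesion protein vitronectin, was at -1.97, -1.99, -2.01 and -1.74 (mean -1.93 ± 0.28, adjusted p = 0.0115). Array 4 was the least low for both. The other genes called lower were Apoa2, Trf, Hamp, Cyp3a11 and Ambp. Against them, Apoc3, an apolipoprotein of triglyceride-rich particles, was at 0.55, 0.38, 0.89 and 1.00 and rose to 0.71 ± 0.12 (adjusted p = 0.0149).

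In SDHD-ESR the same transcripts spread widely. Alb there was at -3.51, -3.29, -1.57 and 0.06, and Fabp1 at -3.67, -3.52, -1.98 and -0.95. Arrays 1 and 2 of SDHD-ESR were thus as low as the +/- arrays, and array 4 was near the pool for Alb. The list's median was -0.36 in SDHD-ESR, and no member differed between the groups at an adjusted p of 0.05. Ahsg, Apoa1, Fabp1 and Vtn were called in each fit that left out 1 +/- array, and the other 7 called members were not. In these bulk samples fewer cells of a type and less RNA per cell cannot be told apart, and whether liver-type RNA entered the pool or the kidneys as tissue was not tested.

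Acute phase genes, which liver and also injured kidney turn on in inflammation, moved the same way. Of 24 tested, 0 were called higher (10.6% of all genes) and 9 lower (37.5%, against 6.29% of all genes), with a median of -0.52. Saa1 was at -1.56, -1.46, -1.47 and -1.46, the most even of the group, with a mean of -1.49 ± 0.07 (adjusted p = 0.000438) or 2.81-fold below the pool. Fgb, the beta chain of fibrinogen, was at -2.72, -3.81, -2.47 and -2.12 (mean -2.78 ± 0.29, adjusted p = 0.00640). Itih4, an inhibitor heavy chain of plasma, was at -1.21, -1.60, -1.87 and -1.68 (mean -1.59 ± 0.19, adjusted p = 0.00819). On all 4 arrays these genes were below the pool.

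Fgb was less low in SDHD-ESR, at -0.54, -1.49, -1.67 and -0.73, and the groups did not overlap, but the adjusted p of the difference was 0.475. The other members called lower were Saa3, the haemoglobin scavenger haptoglobin (Hp), the haem scavenger hemopexin (Hpx) and the orosomucoids Orm1 and Orm2. Saa1, Saa2, Hp, Fgb and Itih4 were called in every fit without 1 +/- array. Lcn2, a neutrophil gelatinase-associated lipocalin raised in injured tubules, was at -0.17, -0.31, -0.17 and 0.12 and was not called (mean -0.13, adjusted p = 0.510).

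**Figure D3:**
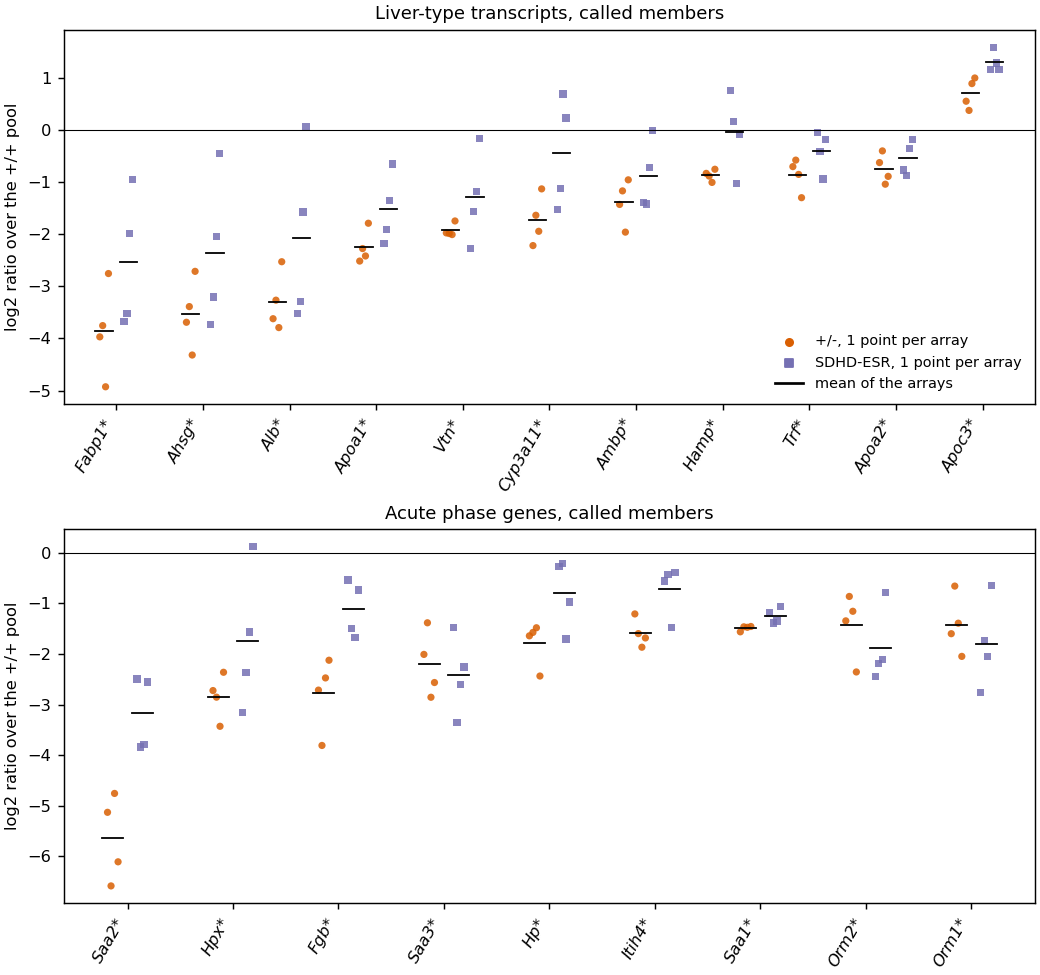
Log2 ratio over the +/+ pool (vertical axis) of the called liver-type (top) and acute phase (bottom) genes, 1 point per array, +/- as circles and SDHD-ESR as squares, bars for means. Every gene but Apoc3 lies below 0 on all +/- arrays, while SDHD-ESR points spread up to the pool or above it for Alb, Hamp, Cyp3a11 and Hpx. An asterisk marks genes called in +/-.

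Interferon and antigen presentation genes were lower as well. Interferons act through STAT and IRF factors that bind a promoter element, the ISRE, and switch on antiviral effectors, resident GTPases and the machinery that loads peptides on class I molecules. Of 30 tested genes, 11 were called lower (36.7%, against 6.29% of all genes) and 0 higher, 27 of 30 had a mean below 0, and the median was -0.52. On all 4 +/- arrays 22 of them were below the pool, against 17% of all genes. The called members are shown here by their start sites because they share an induction route. Of 8 genes called lower with a promoter in RefSeq (GRCm38.p6), 4 held the ISRE-type letters GAAA, 2 bases of any kind and GAAA again, on either strand within the 300 bases around the start, and so did 8 of 15 members not called lower, against 3.44% of 32851 promoters. The match is a description of these windows and not a measured site. The 4 windows from 150 bases before to 20 after the start are printed in the direction of the gene, with the matches in capitals.
Ifit1, chr19:34640739-34640908, + strand: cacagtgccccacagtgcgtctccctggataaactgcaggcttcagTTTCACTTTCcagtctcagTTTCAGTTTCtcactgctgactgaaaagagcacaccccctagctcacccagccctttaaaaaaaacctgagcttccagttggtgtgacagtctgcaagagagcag
Isg15, chr4:156200799-156200968, - strand: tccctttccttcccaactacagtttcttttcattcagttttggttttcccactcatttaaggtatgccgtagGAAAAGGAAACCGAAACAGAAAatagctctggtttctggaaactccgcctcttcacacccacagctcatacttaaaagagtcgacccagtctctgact
Igtp, chr11:58199406-58199575, + strand: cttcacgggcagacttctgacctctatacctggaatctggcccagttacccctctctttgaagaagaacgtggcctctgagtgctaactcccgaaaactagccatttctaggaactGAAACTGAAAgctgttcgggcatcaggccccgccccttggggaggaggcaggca
Irgm1, chr11:48871401-48871570, - strand: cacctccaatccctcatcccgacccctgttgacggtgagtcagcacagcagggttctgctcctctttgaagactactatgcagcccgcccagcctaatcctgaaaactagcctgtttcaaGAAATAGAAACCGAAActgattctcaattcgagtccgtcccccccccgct

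The antiviral effector Ifit1, with 2 matches, was at -1.65, -1.08, -1.15 and -1.43 (mean -1.33 ± 0.31, adjusted p = 0.0305). Isg15, a ubiquitin-like modifier with 3 overlapping matches, was at -1.29, -0.85, -1.56 and -1.55 (mean -1.31 ± 0.24, adjusted p = 0.0174). Array 2 was the least low for both.

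The GTPases of the IRG family, which act against parasites inside cells, were lower on every +/- array. Igtp, with 1 match, was at -1.61, -1.02, -0.98 and -0.84 (mean -1.11 ± 0.14, adjusted p = 0.00903). Irgm1, with 2 overlapping matches, was at -1.26, -0.58, -0.74 and -1.05 (mean -0.91 ± 0.19, adjusted p = 0.0221). Iigp1 was at -1.32, -0.87, -1.67 and -1.01 (mean -1.22 ± 0.14, adjusted p = 0.00757), 2.33-fold below the pool. Of the whole list only Igtp and Iigp1 were called in each fit that left out 1 +/- array.

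The antiviral GTPase Mx1 was at -0.92, -0.87, -1.36 and -1.38 (mean -1.13 ± 0.19, adjusted p = 0.0144). Usp18, which removes ISG15 from proteins, averaged -1.01, and Ifit2 -0.50. In the antigen-processing arm, the immunoproteasome subunit Psmb8 was at -0.67, -0.27, -0.58 and -0.53 (mean -0.51 ± 0.08, adjusted p = 0.0130). Its partner Psmb9 averaged -0.40 and the peptide transporter Tap1 -0.82. Array 2 was the least low for Psmb8, as it was for Ifit1 and Isg15. The 300-base windows of Psmb8, Psmb9, Tap1 and Ifit2 did not hold these letters.

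The SDHD-ESR values ran beside these and often lower. The list's median was -0.86 there, Psmb8 averaged -0.93 and Iigp1 -1.71. SDHD-ESR array 2 stood at -0.55 for Isg15 and 0.04 for Ifit1, apart from its group. Both groups were measured against the same pool, so these values are not independent of each other.

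Some leukocyte markers were also lower. Of 12 macrophage markers, 7 were called lower (58.3%, against 6.29% of all genes) and 0 higher (10.6% of all genes), with a median of -0.53. C1qb, a chain of the first complement component made by tissue macrophages, was at -0.54, -0.39, -0.56 and -0.57 (mean -0.52 ± 0.06, adjusted p = 0.00842). Its partner C1qc was at -0.46, -0.31, -0.69 and -0.70 (mean -0.54 ± 0.09, adjusted p = 0.0152). The actin-binding microglia and macrophage protein Aif1 was at -1.02, -0.48, -1.30 and -0.55 (mean -0.84 ± 0.16, adjusted p = 0.0177). Array 2 was again the least low for these 3. The scavenger receptor Cd163, with a value on 3 of the 4 arrays, averaged -1.12, and C1qa, the mannose receptor Mrc1 and the F4/80 gene Adgre1 were called lower as well. Only C1qb was called in each fit without 1 +/- array.

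Of 11 neutrophil markers 4 were called lower (36.4%, against 6.29% of all genes). Retnlg, a resistin-like protein, was at -0.97, -1.82, -2.42 and -2.29 in +/- (mean -1.87 ± 0.33, adjusted p = 0.0162) and at 1.20, -0.27, -0.22 and -0.64 in SDHD-ESR, where the mean was 0.02 (adjusted p of the difference 0.475). The chemokine receptor Cxcr2 was at -3.79, -2.16, -1.54 and -1.13 (mean -2.15 ± 0.39, adjusted p = 0.0163). The calprotectin genes S100a8 and S100a9 averaged -0.99 and -1.07, with array 3 the lowest of the 4. Of 16 lymphocyte markers 2 were called lower (12.5%, against 6.29% of all genes), the natural killer receptor Klrd1 (2.01-fold below the pool) and the costimulatory receptor Cd27 (-0.62), and the median of that list was -0.04. The difference between the leukocyte lists was not tested.

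**Figure D4:**
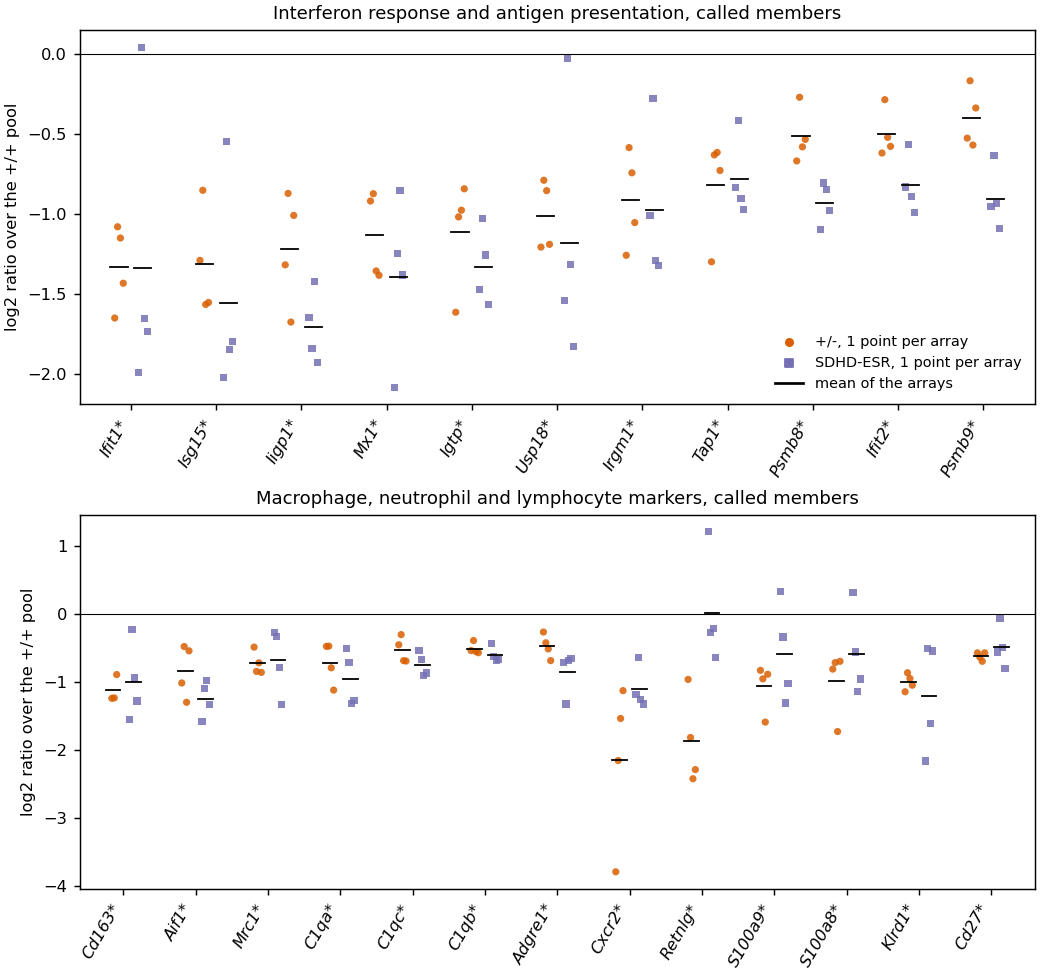
Log2 ratio over the +/+ pool (vertical axis) of the called interferon and antigen presentation genes (top) and leukocyte markers (bottom), 1 point per array, +/- as circles and SDHD-ESR as squares, bars for means. All +/- points lie below 0, and SDHD-ESR points overlap them for most genes. An asterisk marks genes called in +/-.

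Markers of other tissues that can adhere to a kidney included genes called lower. Of 12 adrenal and chromaffin markers, 3 were called lower (25%, against 6.29% of all genes), with a median of -0.57. Cyp11b1, the last enzyme of glucocorticoid synthesis in the adrenal cortex, was at -1.04, -0.99, -1.29 and -1.11, with a mean of -1.11 ± 0.08 (adjusted p = 0.00357). The steroid dehydrogenase Hsd3b1 was at -3.48, -1.89, -2.51 and -1.75 (mean -2.41 ± 0.32, adjusted p = 0.0112), and the cholesterol carrier Star averaged -0.44. All 4 arrays were below the pool for each. Of 12 fat markers, 2 were called lower (16.7%, against 6.29% of all genes), and the median was -0.46. They were the lipid droplet protein Plin1 (-0.69) and the lipase Lipe (-0.57). None of 13 muscle markers was called, though their median was -0.46 and the creatine kinase Ckm was at -1.23, -1.13, -0.73 and -2.86. Of 8 pancreas and 7 red blood cell markers, 0 were called, against 16.9% of all genes. Every feature was near 0 on at least 2 arrays for 4 of the red blood cell markers, all of them globin genes, which limits what they can show. For comparison, the median was -0.41 for odorant receptor genes (Olfr) and -0.40 for vomeronasal receptor genes (Vmn). The part of adhering tissue in these values was not tested.

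Matrix and injury genes followed in the same direction. Of 11 fibroblast and mesangial markers, 2 were called lower (18.2%, against 6.29% of all genes), the fibrillar collagen Col3a1 (-0.80) and Fbln2 (-0.47). Of 12 tubular injury markers, 4 were called lower and 1 higher (41.7% in either direction, against 16.9% of all genes). Timp1, an inhibitor of matrix proteases, was at -1.51, -0.97, -1.45 and -2.01 (mean -1.48 ± 0.22, adjusted p = 0.0115). Sox9, a transcription factor of regenerating tubules, was at -0.88, -1.68, -1.19 and -1.03 (mean -1.20 ± 0.15, adjusted p = 0.00906). The hyaluronan receptor Cd44 was at -0.89, -1.03, -0.95 and -1.14 (a mean 2.001-fold below the pool, adjusted p = 0.00476). These 3 were below the pool on all arrays and were called in each fit without 1 +/- array. Vcam1 (-0.60) was the other member lower, and the keratin Krt8 (0.26) was higher. Havcr1, the kidney injury molecule, was at 0.33, -0.45, 0.68 and -0.34 and was not called.

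Genes of mitochondria were among the small rises, as were genes of other families. Of genes with a Vps symbol 34.3% were called higher and of those with an Eif symbol 23.6%, but 0% of Rps genes. Every feature was near 0 on at least 2 arrays for 28 of the 59 Rps genes, against 1 of 35 Vps and 4 of 55 Eif genes. Of 38 mitochondrial ribosomal proteins, which translate the few proteins coded in mitochondrial DNA, 14 were called higher (36.8%, against 10.6% of all genes) and 0 lower, 35 had a mean above 0, and the median was 0.20. On all 4 arrays 29 of the 38 were above the pool, against 25.8% of all genes. Mrpl18 was at 0.55, 0.42, 0.46 and 0.34 (mean 0.44 ± 0.05, adjusted p = 0.00845). Mrps24 was at 0.53, 0.50, 0.49 and 0.32 (mean 0.46 ± 0.07, adjusted p = 0.0110), and Mrps22 at 0.36, 0.29, 0.58 and 0.33 (mean 0.39 ± 0.06). Every array was above the pool for these 3, and the whole list ran from -0.05 to 0.46. In SDHD-ESR the list's median was 0.12. Mrpl18 and Mrps24 were the members called in each fit without 1 +/- array.

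The respiratory chain could be read only in part. All features were deposited near 0 on at least 2 of the 8 arrays for 22 of 36 complex I genes, 7 of 9 complex III genes, 8 of 12 complex IV genes and 10 of 14 ATP synthase genes. On all 4 +/- arrays this was so for 14, 5, 4 and 6 of them, and their size is not known there, while the others have a ratio on some arrays. Of complex I, 5 genes were called higher (13.9%, against 10.6% of all genes), and 0 of these held in every fit without 1 +/- array. Among them the assembly-critical subunit Ndufs4 was at 0.33, 0.33, 0.29 and 0.34 (mean 0.32 ± 0.05, adjusted p = 0.0126). Ndufa10 (0.39), Ndufb6 (0.33), Ndufa11 (0.29) and Ndufs8 (0.25) were the others. Cox6b1 of complex IV (0.24) was called higher (8.33% of its list), as were Atp5o (0.37) and Atp5l (0.21) of ATP synthase (14.3%). These shares were near the 10.6% of all genes. Atp5o held its call in every fit without 1 +/- array, and Cox6b1 and Atp5l did not. No gene of these complexes was called lower.

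Of 13 other Krebs cycle genes, 4 were called higher (30.8%, against 10.6% of all genes) and 0 lower. Every feature was near 0 on at least 2 arrays for 7 of the 13. Of the 4 called, Idh3a and Idh3b held in each fit that left out 1 +/- array, and Fh1 and Suclg2 did not. Idh3a, the catalytic subunit of the NAD-dependent isocitrate dehydrogenase, was at 0.68, 0.45, 0.55 and 0.48 (mean 0.54 ± 0.06, adjusted p = 0.00798). Its partner Idh3b was at 0.39, 0.51, 0.43 and 0.23 (mean 0.39 ± 0.06, adjusted p = 0.0121). Fh1, fumarase, the step after succinate dehydrogenase, was at 0.15, 0.16, 0.38 and 0.37 (mean 0.26 ± 0.07, adjusted p = 0.0376). Suclg2, a subunit of the succinyl-CoA ligase that precedes it, averaged 0.31. For Fh1 the pair of arrays on the second slide was the higher, and all 4 arrays were above the pool for each of these genes. In SDHD-ESR, Suclg2 averaged 0.64 and Fh1 0.44.

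Of 32 genes of amino acid metabolism, 7 were called higher (21.9%, against 10.6% of all genes) and 0 lower, with a median of 0.22, and 1 of the 7 held in every fit without 1 +/- array. Fah, the last enzyme of tyrosine breakdown, was at 0.59, 0.45, 0.58 and 0.48 (mean 0.52 ± 0.07, adjusted p = 0.0106). Sardh and Dmgdh, which demethylate sarcosine and dimethylglycine in mitochondria, averaged 0.45 and 0.46, and glutamate dehydrogenase (Glud1) 0.34. Of 24 genes of fatty acid oxidation and ketone bodies, 4 were higher (16.7%, against 10.6% of all genes), namely Etfdh (0.31), Acadl (0.28), Cpt1a (0.27) and Cpt2 (0.20), and 0 of these held in every such fit. Of 18 antioxidant genes 5 were higher (27.8%, against 10.6% of all genes), of which 1 held in every such fit. They were led by catalase (Cat), at 0.36, 0.43, 0.51 and 0.66 (mean 0.49 ± 0.06, adjusted p = 0.00938). Gsta2, a glutathione transferase, averaged 0.41 in +/- and 1.05 in SDHD-ESR (adjusted p of the difference 0.320).

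**Figure D5:**
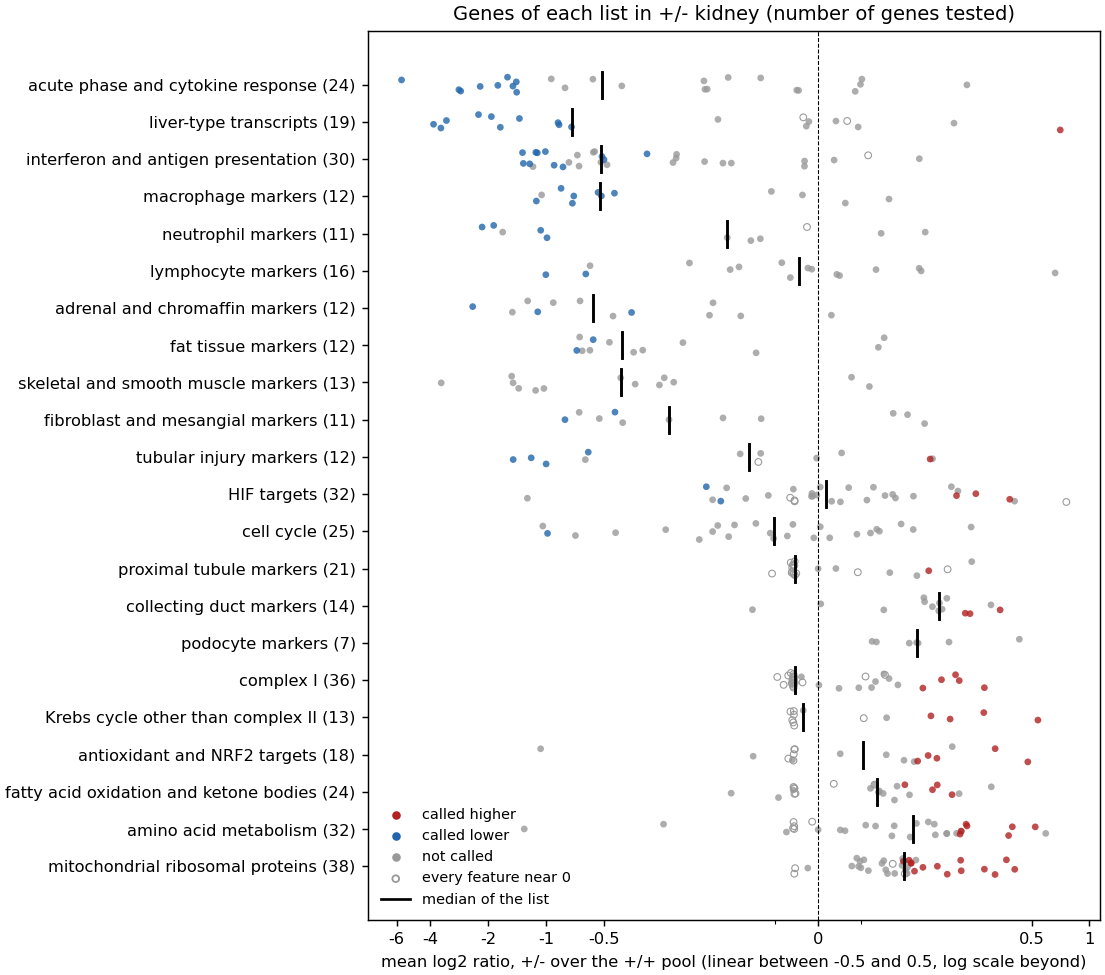
Mean log2 ratio of +/- over the pool (horizontal axis, linear between -0.5 and 0.5 and log scale beyond) for each tested gene of 22 lists (rows), in red if called higher, blue if called lower, grey if not called and open if every feature was near 0 on at least 2 arrays; black bars are list medians. Liver-type, acute phase, interferon and macrophage lists sit to the left, and mitochondrial ribosomal, amino acid and collecting duct lists a little to the right.

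HIF targets, which a pseudo-hypoxic state would move, had no common direction in +/-. Of 32 tested, 3 were called higher, 2 lower and 27 not, with a median of 0.02. The share called, 15.6%, was near the 16.9% of all genes. Vegfa, the angiogenic growth factor, was at 0.46, 0.28, 0.31 and 0.42 (mean 0.37 ± 0.07, adjusted p = 0.0162), 1.29-fold the pool, and at 0.36 in SDHD-ESR. The glucose transporter Slc2a1 was at 0.38, 0.21, 0.56 and 0.64 (mean 0.45 ± 0.10, adjusted p = 0.0266) and averaged 0.76 in SDHD-ESR. Hexokinase 1 (Hk1) averaged 0.32. All +/- arrays were above the pool for these 3.

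The lipid droplet gene Hilpda (-0.23) and the lactate exporter Slc16a3 (-0.26) were called lower. Pdk1, which closes off pyruvate dehydrogenase, was at -0.18, 0.34, -0.16 and -0.05 (adjusted p = 0.948), and Egln3, a prolyl hydroxylase induced by HIF, at -0.18, 0.67, 0.01 and 0.02 (adjusted p = 0.505). Neither was on 1 side of the pool on all arrays. Car9, a carbonic anhydrase, split by slide at -0.20 and -0.17 on the first and 0.67 and 0.95 on the second. Not 1 of the 5 called HIF targets held its call in each fit that left out 1 +/- array.

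Few markers of kidney cell types were called. Of 14 collecting duct markers, 3 were called higher (21.4%, against 10.6% of all genes), with a median of 0.28, and 0 of the 3 held in every fit without 1 +/- array. These were Foxi1, the master factor of intercalated cells, at 0.41, 0.18, 0.48 and 0.64 (mean 0.43 ± 0.08, adjusted p = 0.0177), the anion exchanger Slc4a9 (0.36) and the proton pump subunit Atp6v1g3 (0.34). All 7 podocyte markers had means above 0 and 0 were called, with a median of 0.23 and the nearest, Wt1, at an adjusted p of 0.0533. Among 21 proximal tubule markers, 15 were deposited near 0 on at least 2 arrays, 7 of them on all 4 +/- arrays. The endocytic receptor Cubn (0.26) was the 1 called higher (4.76%, against 10.6% of all genes). Of 14 loop and distal tubule markers, Tmem52b (-0.67) was called lower (7.14%, against 6.29% of all genes).

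Few genes of growth control were called. Of 25 cell cycle genes the mitotic checkpoint kinase Bub1 (-0.98) was lower (4%, against 6.29% of all genes). Of 20 p53 targets and CDK inhibitors, 2 were called higher (10%, against 10.6% of all genes) and 0 lower. Mdm2, the ubiquitin ligase of p53, was at 0.20, 0.31, 0.32 and 0.46 (mean 0.32 ± 0.06, adjusted p = 0.0206), and the desmosomal protein Perp averaged 0.29. Both were above the pool on each array. Cdkn1a, which encodes the CDK inhibitor p21, averaged 0.04 ± 0.19 in +/- (adjusted p = 0.892) and 1.39 in SDHD-ESR. The Y-linked gene Eif2s3y was called higher at 0.58, 0.70, 0.58 and 0.64, and Xist, transcribed from the inactive X chromosome of females, was called lower at -0.55, -3.94, -1.12 and -1.98, while Y-linked Uty was at -0.11, -0.31, -0.95 and 0.20 and was not. What the pool holds was not tested.

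Against SDHD-ESR, measured on the same pool so that the pool cancels, few genes were called. Sdhd itself was not among them, although its difference was 3.29 and the groups did not overlap (limma, adjusted p = 0.108). Before adjustment, the limma p of 1572 genes was at or below the threshold used for calls. The small number of calls therefore does not show that few genes differed. Limma called 1 gene higher (0.00487% of those tested) and 2 lower (0.00975%) in +/-, 0.0146% in either direction. Tex12 was at 3.10, 3.16, 3.11 and 2.60 in SDHD-ESR, above every +/- array, with a difference of -3.64 (adjusted p = 0.00148). Tmprss9, a transmembrane serine protease, was at 0.27, 0.13, 0.32 and 0.52 in +/-, against -1.79, -2.06, -1.83 and -1.77 on the SDHD-ESR arrays (difference 2.17, adjusted p = 0.00148). Kynu, kynureninase of tryptophan breakdown, was at -0.04, -0.13, -0.09 and -0.03 in +/-, against 1.04, 0.94, 0.92 and 0.91 on the SDHD-ESR arrays (difference -1.03, adjusted p = 0.00654). The groups did not overlap for these 3 genes, but the genes were picked by this comparison, so that is no further support.

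Of the 3467 genes called against the pool, 489 had an unadjusted p of 0.05 or less against SDHD-ESR, and in 360 of these +/- lay farther from the pool than SDHD-ESR did. Choosing genes by their call in +/- favours this side. Among the 4880 genes called in SDHD-ESR, 842 had such a p, and in 787 of these SDHD-ESR lay farther out. Vipr2, a receptor for vasoactive intestinal peptide, was at -1.31, -1.44, -1.38 and -1.64 in +/-, against -0.80, -0.63, -0.34 and -0.46 on the SDHD-ESR arrays (adjusted p of the difference 0.210). Frzb, a secreted inhibitor of Wnt signalling, was at 0.34, 0.43, 0.78 and 0.48 in +/- and below the pool in SDHD-ESR, at -0.36, -0.41, -0.29 and -0.13 (adjusted p of the difference 0.221). C1qtnf3, an adipokine of the C1q family, averaged 0.41 in +/- and -0.27 in SDHD-ESR, and the serotonin receptor Htr2c -0.97 and -0.05. The others of the 8 with the smallest p were Vmn1r215, Gm3363, Lipo3 and Gm9115. The groups did not overlap for any of these 8, but the genes were picked by their p between the groups, so that is no further support. No difference of these 8 passed the threshold after adjustment.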

How the data were processed

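Kidney RNA was hybridised on Agilent mouse arrays (200 ng of RNA per array), 4 with +/- and 4 with SDHD-ESR RNA in Cy5 against a +/+ pool in Cy3. The authors scanned them with GenePix and analysed them in Multi-Experiment Viewer, and the sources used here give neither background correction nor normalization. The values the authors deposited, named here as other than a single unit, are log2 ratios mixed with whole numbers of up to 65024 in size. Whole numbers (9.05% of values) were set to missing, so some true ratios may have been lost. Each row was joined to a feature through a scanner layout inferred from the values, since the row numbers do not match the platform. Correlation between repeated spots was 0.747 with this layout and 0.164 with plain numbers, over 376 accessions with at least 10 spots. Over 4960 accessions with 2 to 9 spots it was 0.307 with this layout and -0.009 with plain numbers. Of 45220 features, 33026 name 1 gene, for 22485 genes. Symbols and accessions came from the platform annotation, and list members were matched through RefSeq synonyms.

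Each array was centred on its median, features of a gene were averaged, and genes with at least 3 values per group entered a two-sided limma fit (version 3.58.1, R 4.3.3) of the group means over all 8 arrays, with Benjamini-Hochberg adjustment. Features within 0.01 of 0 on at least 2 arrays (1725) stayed in the fit. An exact sign-flip test over 4 arrays cannot go below p = 0.125. The steps were tested on simulated data. Precision is limited by how many arrays there were, and p-values measure only the spread between arrays of pooled mice. Both groups had replicates 1 and 2 on the first slide and the remaining pair on the second, and position on the slide and group cannot be told apart. Lists of textbook genes, the part described and its members were chosen with earlier results of these data known. Genes named were the 12 largest rises and 12 largest falls among calls with the same sign on all 4 arrays, complex II genes, neighbours of Sdhd, up to 4 members of smallest p per list, and 8 genes of smallest p against SDHD-ESR. Other members of lists were named after their values were seen, as were Kynu, Tmprss9, Mup5 and Cdkn1a. Alternatives were no centring, features singly, +/- arrays alone, other handling of near-0 and missing values, slide and replicate number as blocks, scaling, and each array left out.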

Additional observations from a re-analysis of the deposited data

Results flagged for a closer look

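Tex12 differed between the groups, with +/- minus SDHD-ESR at -3.64 (limma, adjusted p = 0.00148). In 13 of 216 named genes with 4 values in +/- (6.02%), 1 array stood apart from the other 3, with a gap, as a share of the whole range, above Dixon's critical value for 4 samples, and chance alone does this in about 1 of 20 groups. These were Hspb2 on array 2 (-0.28), Cox7a2 on array 3 (-0.20), Saa1 on array 1 (-1.56), Vtn on array 4 (-1.745), Des on array 4 (-0.65), Tspo2 on array 4 (0.34) and Hba-a2 on array 1 (3.46). The others were Cubn on array 4 (0.14), S100a9 on array 3 (-1.59), S100a8 on array 3 (-1.73), Tyms on array 4 (0.56), Shmt2 on array 1 (0.18) and Msmo1 on array 2 (-0.074). For Saa1 the 4 values all lie within -1.56 and -1.46, and for Hba-a2, a red blood cell gene, the other 3 arrays were between -0.41 and 0.19 and deposited near 0. Cox7a2 was deposited near 0 on 3 of the 4 +/- arrays, array 3 among them, so its gap does not measure a change.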

How the results depend on the processing

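Against the pool, the counts of genes higher and lower (2177 and 1290) were 0 and 5 without centring, 3934 and 2332 over single features, 4 and 55 with the +/- arrays alone, and 139 and 273 with a replicate block. Leaving out 1 +/- array gave 275 to 1002 higher and 262 to 634 lower, the fewest without array 4, and leaving out 1 SDHD-ESR array gave 1639 to 1756 and 1093 to 1109. With near-0 features left out, genes with all 8 values, a minimum of 2 values, a slide block, scaled arrays or small whole numbers kept, both counts stayed within 1.5 times. Of the 24 largest changes, 1 was still called without centring, 6 with the +/- arrays alone, 12 with a replicate block and 14 to 20 without 1 +/- array.

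Against SDHD-ESR, genes higher and lower (1 and 2) were 0 and 2 without centring, 1 and 5 over single features, 2 and 3 with a slide block, 0 and 0 with a replicate block (1663 genes with an unadjusted p up to 0.05), 1 and 1 to 2 without 1 +/- array, and 1 to 2 and 1 to 3 without 1 SDHD-ESR array. The mean of Sdhd was between -0.88 and -0.71 over all settings, and its adjusted p was 0.0381 without SDHD-ESR array 3 and above the threshold otherwise. Replicate numbers did not pair the arrays, with r between same-numbered arrays of -0.008 to 0.033, and not every array correlated best with its own number. No direction of a named gene was reversed after a call. The cause of the lost calls was not tested, save that fewer arrays give fewer degrees of freedom. Signal over background was not known.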

Other observations

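Genes grouped by symbol show further members of the same families. Of 20 chemokines with a Ccl symbol, 8 were called lower (40%, against 6.29% of all genes) and 1 higher in +/- (limma, adjusted p of 0.05 or less), with a median of -0.65 and medians per array of -0.91, -0.41, -0.70 and -0.45. Of 40 collagens with a Col symbol, 7 were called lower (17.5%) and 1 higher, with a median of -0.27. Of 15 Timm genes, which carry proteins across the inner mitochondrial membrane, 7 were called higher (46.7%, against 10.6% of all genes) and 1 lower, with a median of 0.22 and medians per array from 0.18 to 0.25. Of 51 Mrpl genes 19 were called higher (37.3%) and 1 lower, and of 30 Mrps genes 8 were higher (26.7%) and 0 lower. Such shares were not limited to genes of mitochondria. Of 35 Vps genes 12 were called higher (34.3%) and 0 lower, and of 55 Eif genes 13 were higher (23.6%) and 0 lower. Of 40 Rbm genes 11 were higher (27.5%) and 3 lower, while 0 of 59 Rps genes were called. For 28 of the Rps genes every feature was near 0 on at least 2 arrays. Of 189 vomeronasal receptor genes (Vmn), 17 were called lower (8.99%) and 2 higher (1.06%), 10.1% in all against 16.9% of all genes, with a median of -0.40.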
